A study of Homo sapiens with 14 samples.

Results

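The KSR inhibitor APS-2-79 (KSRi) was compared with its solvent DMSO in Jurkat cells. The members were the libraries that carry those treatment labels, 3 of KSRi and 3 of DMSO, which are 6 of the 14 libraries of the series. Jurkat is an established human line of T-cell acute lymphoblastic leukaemia, and polyadenylated RNA of this line was sequenced in every group. The other 8 libraries, from cells with a non-targeting guide (NT) or a *KSR2* guide and without the compound, entered the fit for its estimate of spread and are otherwise used here for levels only. The titles of the NT libraries name a CRISPR non-targeting guide, but their library names read shRNA_CTR, and the labels do not settle this. One library preparation text serves all samples and speaks of transduced cells, but no vector is named for the KSRi and DMSO groups. The sources used here do not give the dose or the time. Nor do the labels say whether the 3 libraries of a group came from different cultures, and the p-values below therefore cover the spread among these libraries alone, part or all of which may be technical. All findings come from 1 cell line, and a change in the number of cells of a kind cannot be told apart from a change of RNA per cell.

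KSR1 and KSR2 are scaffold proteins that hold RAF, MEK and ERK together, so that a signal from active RAS passes down the kinase cascade. In T cells this cascade runs below the T-cell receptor and cytokine receptors and feeds growth, biosynthesis and the entry into the cell cycle. APS-2-79 is a small molecule that binds KSR and stabilises an inactive state of the complex with MEK. *KSR2* had 36.9 ± 2.23 CPM (counts scaled to a common library size, SD, n = 3) in DMSO and 34.2 ± 1.20 in KSRi, and its log2 change of −0.11 ± 0.08 (SE) missed the threshold (edgeR adjusted p = 0.28). *KSR1* had 21.9, 21.7 and 21.5 CPM in DMSO and 27.9, 32.2 and 35.9 in KSRi, and the groups did not overlap (log2 change 0.56 ± 0.08, edgeR adjusted p = 6.1e-05).

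Library totals were 27099107 to 43027877 counts in DMSO and 21710466 to 45897075 in KSRi. All 15 listed markers of T-cell leukaemia identity had counts, with summed levels of 3420 to 3510 CPM in DMSO and 3380 to 4160 in KSRi. Markers of myeloid cells summed to 0.628 to 0.963 CPM in DMSO and 0.630 to 0.752 in KSRi, with *CSF1R*, *ELANE*, *FCGR3A* and *S100A8* at 0 in every library of both groups. Markers of B cells summed to 40.8 to 44.5 and 49.6 to 56.5 CPM, with *MS4A1*, *CD22* and *IGKC* at 0. Markers of natural killer cells summed to 9.38 to 10 and 12.5 to 17 CPM, with *NCR1* at 0. Fibroblast and epithelial markers summed to 6.15 to 6.66 and 8.82 to 13.4 CPM, with *CDH1*, *COL3A1* and *EPCAM* at 0, and erythroid and platelet markers to 0.837 to 0.983 and 0.537 to 1.34 CPM, with *HBB* and *PF4* at 0. The part of these small sums in the results below was not tested.

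The KSRi libraries differed from each other more than the DMSO libraries did. The biological coefficient of variation, estimated within each group alone, was 13.6% in KSRi and 5.35% in DMSO. Across 10714 genes the median SD of log2 CPM was 0.142 in KSRi and 0.062 in DMSO, and among 10742 genes of at least 5 CPM the SD was larger in KSRi for 8784 (81.8%). An SD over 0.5 was found for 203 genes in KSRi and for 16 in DMSO. Library 1 stood apart: the chi-square per degree of freedom was 33.2 between KSRi libraries 1 and 2, 45.04 between 1 and 3, and 15.8 between 2 and 3, against 5.46 to 7.33 for pairs of DMSO libraries. KSRi library 1 lay at least 2-fold above both other KSRi libraries for 61 genes and at least 2-fold below both for 5.

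The genes that vary most among the KSRi libraries fall into a few kinds. *ASPM*, which organises spindle poles, had 218 CPM in KSRi library 1 but 68.2 and 70.8 in libraries 2 and 3, beside 244, 260 and 210 in DMSO. *AKAP9*, a large scaffold of the centrosome and Golgi, had 121 CPM in KSRi library 1 and 37.6 and 41.8 in the others, beside 102, 115 and 88.9 in DMSO. *SAMD9*, an interferon-inducible antiviral gene, had 85.2, 26.9 and 28.1 CPM in KSRi and 54.4, 52.8 and 45.7 in DMSO. In these 3 genes KSRi library 1 was within or above the DMSO range and the other 2 KSRi libraries were below it, so *ASPM* was called lower with all libraries (log2 change −1.0 ± 0.30, edgeR adjusted p = 0.012) on the strength of libraries 2 and 3. Most mitochondrially encoded messengers split another way. *MT-ND5*, a subunit of respiratory complex I, had 1635, 1076 and 359 CPM in KSRi against 860, 568 and 759 in DMSO. *MT-ATP6*, a subunit of ATP synthase, had 1231, 1274 and 328 CPM in KSRi against 845, 488 and 690. Over the 12 messengers of the list, which leaves out *MT-ND6*, the median log2 difference from DMSO was 0.62, 0.55 and −0.56 in KSRi libraries 1, 2 and 3, and 2 of 12 were called higher (0 with the offsets). *MT-ND6*, which is encoded on the other strand, did not split, with 33.6, 36.6 and 39.6 CPM in DMSO and 12.7, 12.2 and 11.8 in KSRi (log2 change −1.58 ± 0.09, edgeR adjusted p = 1.9e-09). KSRi library 3 was thus below both others in this list, and the mitochondrial share of its counts was 1.12%, beside 2.51% and 2.06% in libraries 1 and 2 and 1.27% to 1.45% in DMSO. *PFDN2*, a prefoldin subunit (KSRi 5.17, 44.3 and 66.8 CPM, DMSO 46.5, 6.64 and 54.8), and *RPL41*, a ribosomal protein gene (KSRi 35.5, 185 and 54.0 CPM, DMSO 99.9, 130 and 69.2), varied in both groups. Both may share reads with near-identical copies, so their levels are uncertain.

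The difference between KSRi libraries followed base composition. Genes of at least 5 CPM were put into 5 classes by the GC content of their exons. In the class of lowest GC (27.8% to 41.7%, 2141 genes) the median log2 difference from the DMSO mean was −0.03, −0.20 and −0.29 in KSRi libraries 1, 2 and 3. In the class of highest GC (57.9% to 74.2%, 2141 genes) it was −0.06, 0.16 and 0.27. DMSO libraries stayed between −0.04 and 0.04 in every class. Calls followed the same axis, with 250 genes called higher and 863 lower in the lowest class, and 754 higher and 290 lower in the highest. The 601 genes that were both lowest in GC and longest had medians of −0.01, −0.30 and −0.40 in KSRi libraries 1, 2 and 3, with 66 called higher and 270 lower. The difference from DMSO therefore followed base composition in KSRi libraries 2 and 3 but hardly in library 1. Whether the treatment had a part in this was not tested. The part of base composition in the calls was not tested either. Each gene group below is also given with KSRi library 1 alone against the 3 DMSO libraries. In that fit the lone library is assumed to vary like the other groups. For some groups whose counts moved under a fit with offsets for GC content and length, those counts are given too. Both fits were added after the data had been seen.

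**Figure D1:**
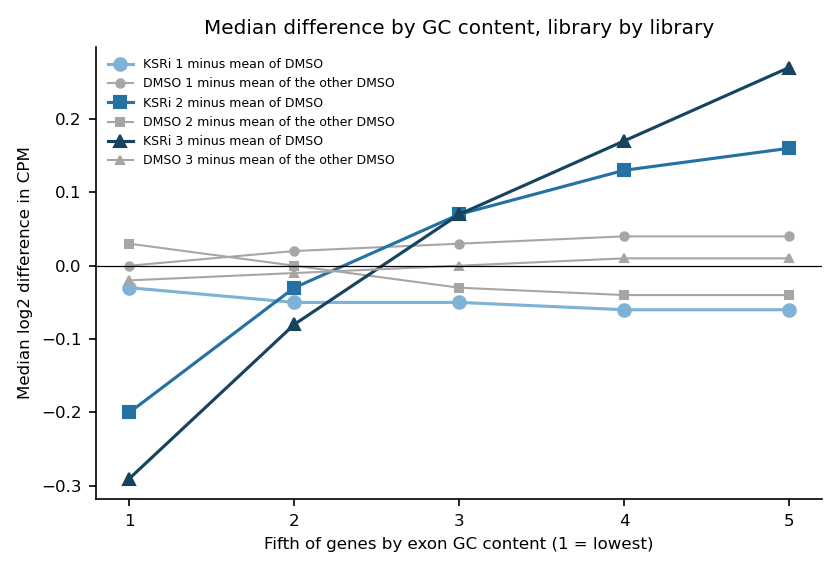
Median log2 difference in CPM from the DMSO mean, or for a DMSO library from the mean of the other DMSO libraries (vertical axis), for 5 classes of genes by exon GC content (horizontal axis, lowest to highest), with 1 line per library. KSRi libraries 2 and 3 rise from −0.20 and −0.29 to 0.16 and 0.27, while KSRi library 1 lies at −0.03 and −0.06 at the ends and the DMSO libraries stay within −0.04 to 0.04.

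With all 6 libraries, 40.7% of the 18963 tested genes were called at an edgeR adjusted p under 0.05, 22.0% higher and 18.7% lower in KSRi. Counts of the gene groups below are to be read beside these shares. The median log2 change was 0.60 among genes called higher, −0.46 among genes called lower and 0.02 over all tested genes. Large rises outnumbered large falls among well expressed genes: of 8542 genes with at least 20 CPM in the higher group, 161 were called at least 2-fold higher and 21 at least 2-fold lower. The genes called higher took 19.7% of all CPM in DMSO and 31.1% in KSRi, and the genes called lower took 38% and 28.3%. No overlap between the libraries of the 2 groups was found for 3851 genes called higher and 3234 called lower. The size of the change differed between KSRi libraries. Among the 2837 genes of at least 5 CPM called higher, the median log2 difference was 0.34, 0.49 and 0.57 in libraries 1, 2 and 3. Among 2690 called lower it was −0.34, −0.39 and −0.45. These genes were called with all 3 libraries, so that their direction in each is largely fixed by the choice. All 3 KSRi libraries lay above all 11 other libraries of the series for 6.50% of tested genes (called higher) and below all 11 for 3.49% (called lower).

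**Figure D2:**
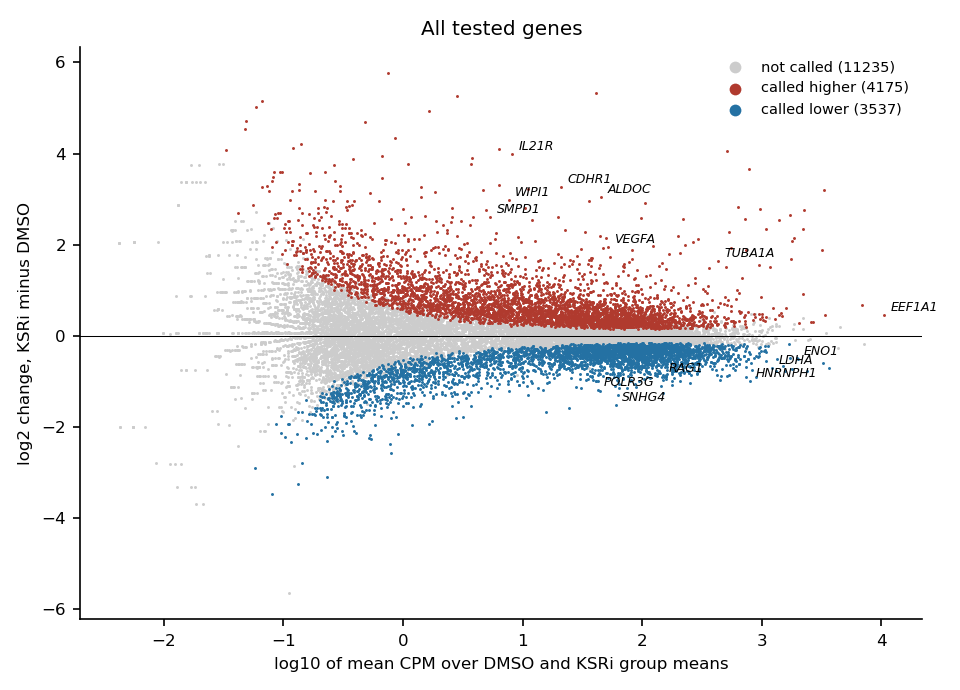
Log2 change, KSRi minus DMSO (vertical axis), against log10 of the mean CPM (horizontal axis) for 18947 tested genes, coloured by call. Among genes of at least 20 CPM, 161 lie beyond a 2-fold rise and 21 beyond a 2-fold fall.

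Genes that hold cells out of the cycle rose. Of 23 tested genes on a list of CDK inhibitors and quiescence genes, 18 were called higher and 1 lower, against 22.0% and 18.7% of all tested genes, with a median log2 change of 0.73 against 0.02. The median was 0.61, 0.69 and 0.80 in KSRi libraries 1, 2 and 3, and 14 were called higher and 2 lower with KSRi library 1 alone. *CCNG2* (chromosome 4, 77157151 to 77433388, GRCh38), an unusual cyclin that restrains the cycle, had 37.0, 40.6 and 38 CPM in DMSO and 114, 136 and 126 in KSRi. Every KSRi library stood far above every DMSO library, a 3.24-fold difference (log2 change 1.70 ± 0.07, edgeR adjusted p = 1.8e-11). *BTG1* (chromosome 12, 92140278 to 92145897), an antiproliferative partner of the deadenylase complex, had 19.5, 17.7 and 19.7 CPM in DMSO and 38.7, 50.4 and 46.4 in KSRi (log2 change 1.25 ± 0.09, edgeR adjusted p = 3.5e-08). *YPEL5*, a component of an E3 ubiquitin ligase complex, rose from 7.43 ± 0.319 to 18.4 ± 1.55 CPM (SD, n = 3 each). *MXD4* (chromosome 4, 2247432 to 2262294), which partners MAX in opposition to MYC, had 47.7, 45.6 and 47.2 CPM in DMSO and 77.6, 99.1 and 103 in KSRi, again without overlap (log2 change 0.99 ± 0.09). The member called lower was *CDKN3*, a phosphatase of CDK2 that peaks in dividing cells, with 54.5, 52.0 and 52.2 CPM in DMSO and 41.0, 40.8 and 38.1 in KSRi (log2 change −0.40 ± 0.06).

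More genes of the G1 to S transition were called lower than higher, by smaller amounts, and their list mixes activators and repressors. Of 21 tested G1 cyclins, CDKs and E2F factors, 2 were called higher and 11 lower (median −0.21, and 0 and 10 with KSRi library 1 alone). *E2F7*, an E2F family repressor, had 104, 103 and 110 CPM in DMSO and 72.4, 77.6 and 73.8 in KSRi (log2 change −0.50 ± 0.07, edgeR adjusted p = 3.9e-05). *E2F1*, an activator of S-phase genes, was called higher instead, from 78.0 ± 4.14 to 101 ± 8.27 CPM (log2 change 0.37 ± 0.11, edgeR adjusted p = 0.015). Of 40 genes for replication licensing and forks, 4 were called higher and 16 lower (median −0.17, and 2 and 18 with KSRi library 1 alone). *RFC3*, a subunit of the clamp loader, had 185, 188 and 172 CPM in DMSO and 122, 125 and 110 in KSRi (log2 change −0.61 ± 0.09). *CDT1*, which loads the MCM helicase, rose from 110, 111 and 109 CPM to 144, 177 and 183 (log2 change 0.61 ± 0.09), so the licensing genes did not move as 1 block. Of 30 genes of homologous recombination and the Fanconi anaemia pathway, 1 was called higher and 15 lower (median −0.23), but 9 lower in a fit of only the 6 libraries. The medians were −0.11, −0.29 and −0.27 in KSRi libraries 1, 2 and 3, so library 1 moved least. *XRCC2*, which acts in recombination repair, shows this split, with 110, 117 and 114 CPM in DMSO and 94.8, 60.2 and 57.6 in KSRi.

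Genes of purine synthesis fell. All 15 genes of the purine pathway list were tested, and 0 were called higher and 12 lower (median −0.36, with −0.48, −0.31 and −0.38 in the 3 KSRi libraries), and 13 were called lower with KSRi library 1 alone. *PPAT*, the committed enzyme of the pathway (chromosome 4), had 157, 142 and 150 CPM in DMSO and 95.8, 109 and 92.0 in KSRi. *PAICS*, its divergently transcribed neighbour, which encodes the enzyme of 2 later steps, had 833, 908 and 886 CPM in DMSO and 581, 623 and 577 in KSRi. Neither gene had overlapping groups, and the log2 changes were −0.59 ± 0.08 and −0.56 ± 0.06 (edgeR adjusted p = 1.9e-05 and 2.7e-06). *ADSL* (log2 change −0.73 ± 0.08), which acts both before and after IMP, and *ADSS2* (−0.62 ± 0.06), which commits IMP to AMP, fell by similar or larger amounts. Of 13 pyrimidine genes, 0 were called higher and 4 lower with all libraries (median −0.13), and 9 lower with KSRi library 1 alone and 7 with the GC and length offsets. *UMPS*, which makes UMP, had 120, 119 and 121 CPM in DMSO and 84.6, 96.8 and 95.8 in KSRi (log2 change −0.38 ± 0.06).

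Most genes of polyamine synthesis and control fell. Of 11 tested genes, 2 were called higher and 7 lower (median −0.42, and 1 and 7 both with KSRi library 1 alone and with the offsets). *ODC1*, the rate-limiting enzyme, had 746, 716 and 700 CPM in DMSO and 484, 581 and 550 in KSRi (log2 change −0.42 ± 0.07, edgeR adjusted p = 0.00024). *AMD1*, which supplies the aminopropyl donor, fell from 340, 349 and 336 CPM to 222, 234 and 211, and *SRM* (chromosome 1, 11054584 to 11060024), spermidine synthase, from 302, 266 and 287 CPM to 182, 212 and 189. Each of these 3 genes was lower in every KSRi library than in any DMSO library. The 2 members called higher are known for polyamine breakdown: *SAT1*, which acetylates polyamines for breakdown and export, rose from 5.44 ± 0.529 to 9.80 ± 1.30 CPM (n = 3 each), and *SMOX*, spermine oxidase, from 16.4 ± 1.5 to 22.4 ± 3.93.

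**Figure D3:**
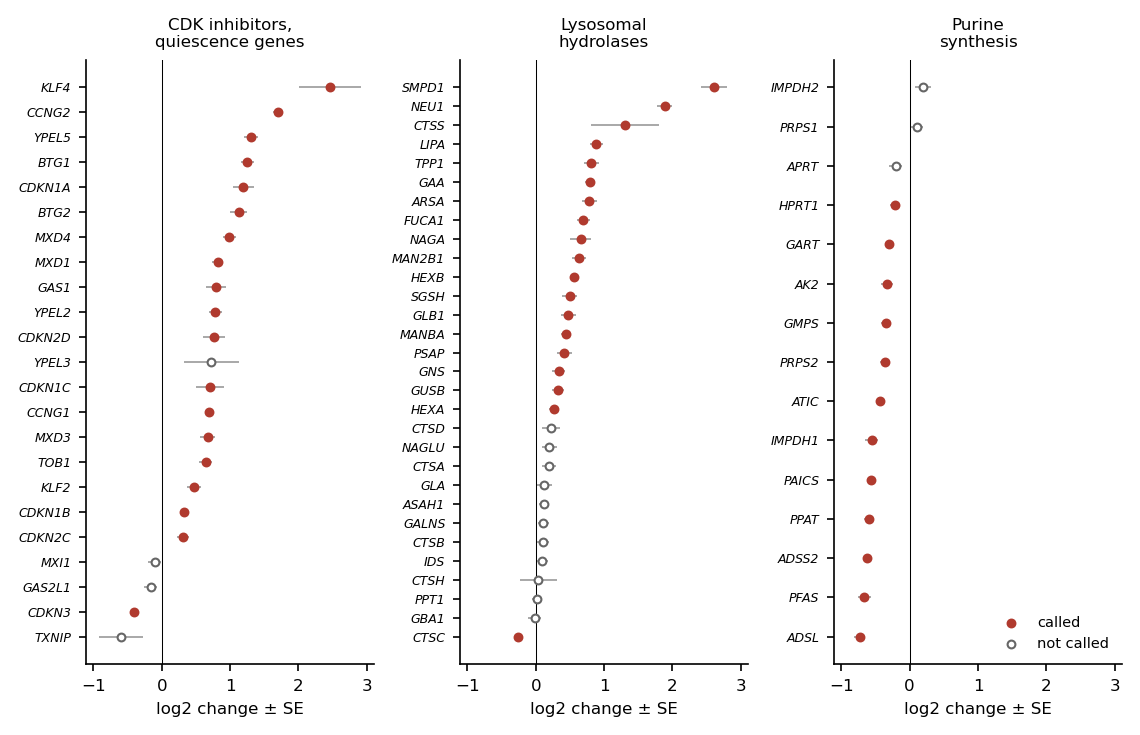
Log2 change, KSRi minus DMSO, with its standard error (horizontal axis) for each tested member of 3 gene lists, filled where called. Quiescence genes lie mostly to the right (18 of 23 called higher), lysosomal hydrolases likewise (18 of 30), and purine synthesis genes to the left (12 of 15 called lower).

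Lysosomal enzymes rose. Of 30 tested lysosomal hydrolases, 18 were called higher and 1 lower (median 0.38), and for 12 of them every KSRi library lay above all 11 other libraries of the series, against 6.50% of all tested genes. With KSRi library 1 alone, 10 were called higher and 1 lower (median 0.17), so the count depends on which KSRi library is read. *NEU1*, lysosomal sialidase (chromosome 6, 31857659 to 31862906), had 34.8, 34.4 and 35.4 CPM in DMSO and 104, 129 and 154 in KSRi, a 3.69-fold rise with no overlap (log2 change 1.89 ± 0.11, edgeR adjusted p = 1.9e-09). *SMPD1*, acid sphingomyelinase, had 1.423, 1.69 and 1.37 CPM in DMSO and 6.68, 9.22 and 11.9 in KSRi (log2 change 2.61 ± 0.19). *GAA*, acid glucosidase (chromosome 17, 80101556 to 80119879), had 44.1, 42.9 and 44.3 CPM in DMSO and 67.6, 76.6 and 84.3 in KSRi, and *LIPA*, acid lipase, rose from 92.7 ± 5.61 to 172 ± 25.6 CPM. The member called lower was *CTSC*, a cathepsin (log2 change −0.25 ± 0.06). Of 16 lysosomal membrane and transport genes, 5 were called higher and 1 lower, 11 higher without KSRi library 1, and 6 higher and 1 lower with it alone. The 5 include the cholesterol exporters *NPC1* (78.3 ± 3.94 to 176 ± 26.8 CPM) and *NPC2* (17.5 ± 1.51 to 52.7 ± 8.25 CPM) and the membrane protein *SCARB2* (16.4 ± 0.806 to 43.1 ± 4.83 CPM). The V-ATPase proton pump did not move together, with 4 of 17 called higher and 3 lower (2 and 3 with KSRi library 1 alone). Among 28 autophagy genes, 11 were called higher and 3 lower (median 0.15, and 7 and 4 with KSRi library 1 alone). *WIPI1*, which binds the forming autophagosome membrane, had 2.01, 1.45 and 1.71 CPM in DMSO and 11.7, 13.8 and 15.4 in KSRi, a 7.94-fold rise (log2 change 2.99 ± 0.13, edgeR adjusted p = 4.3e-11). *NBR1*, a cargo receptor, rose from 80.0 ± 1.30 to 118 ± 4.15 CPM.

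Promoter windows of 5 genes described in this text that hold the letters CACGTG (the E-box core, which factors of the MYC, MXD and MiT/TFE families are known to bind) are shown because the same letters stand before genes that rose and genes that fell. These 5 were chosen after their values were seen. They come from the RefSeq promoter table of build GRCh38.p14 and are written 5′ to 3′ on the strand of the gene, with the matched letters in capitals. *MXD4* (chr4:2262312-2262359, minus strand), *NEU1* (chr6:31862912-31862977, minus) and *GAA* (chr17:80101475-80101540, plus) rose, while *SRM* (chr1:11060182-11060247, minus) and *BMI1* (chr10:22320999-22321064, plus), a polycomb subunit that had 92.3, 85.8 and 88.7 CPM in DMSO and 64.7, 62.5 and 54.1 in KSRi, fell.
MXD4: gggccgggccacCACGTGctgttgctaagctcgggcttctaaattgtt
NEU1: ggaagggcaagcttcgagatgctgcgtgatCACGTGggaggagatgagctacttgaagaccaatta
GAA: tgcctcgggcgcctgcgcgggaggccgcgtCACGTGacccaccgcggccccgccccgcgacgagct
SRM: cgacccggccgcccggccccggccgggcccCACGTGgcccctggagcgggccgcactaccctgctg
BMI1: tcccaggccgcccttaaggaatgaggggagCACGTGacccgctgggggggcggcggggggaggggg

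Promoters of 8675 genes of at least 5 CPM were searched over the 250 bases before the start, on both strands, and compared between the 734 genes called at least 1.5-fold higher and the 401 called at least 1.5-fold lower. The E-box CACGTG stood in 8.58% of the first, 10.7% of the second and 9.34% of all promoters searched. The longer form TCACGTGA, which contains CACGTG and is known from lysosomal promoters, stood in 1.63%, 0.499% and 1.91%. The ETS letters CCGGAAGT, a class of sites read by factors below ERK, stood in 3.27%, 7.98% and 8.07%. The NRF1 letters GCGCATGCG stood in 1.36%, 5.24% and 3.63%, and the cAMP response element TGACGTCA in 1.77%, 5.74% and 3.17%. The box CCAAT stood in 43.1%, 35.4% and 36.1%. Of these letters, both E-box forms and the ETS, NRF1 and cAMP letters had a lower share among genes called higher than among all promoters. CCAAT had a higher one. Also searched were the forkhead letters GTAAACA (1.5%, 3.49% and 1.89%) and the E2F letters TTCCCGCC (3.27%, 3.99% and 4.82%). The sterol regulatory letters TCACCCCAC stood in 0.681%, 0.249% and 0.323%, and TATAAA in 5.18%, 5.49% and 4.45%. None of these differences was tested. The amino acid response letters TGATGCAA stood in 0.817% of the first class (6 genes), in 0 of the second and in 0.346% of all. A match is a description of letters and does not show that a factor was bound.

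The machinery that processes and carries RNA was lower. Of 31 SR and hnRNP splicing proteins, 0 were called higher and 20 lower (median −0.36, and 0 and 18 with KSRi library 1 alone). *HNRNPH1*, a splicing regulator (chromosome 5), had 1016, 992 and 1151 CPM in DMSO and 563, 542 and 490 in KSRi, a 1.98-fold fall without overlap (log2 change −0.99 ± 0.08, edgeR adjusted p = 9.2e-08). *SRSF1*, the founding SR protein, had 218, 229 and 229 CPM in DMSO and 143, 124 and 120 in KSRi, and its kinase *SRPK1* fell from 452 ± 4.70 to 303 ± 20.4 CPM. In the core spliceosome 0 of 35 genes were called higher and 18 lower (median −0.24), and 28 were called lower with KSRi library 1 alone. *PRPF3*, a protein of the tri-snRNP, had 100, 97.3 and 101 CPM in DMSO and 71.4, 66.3 and 67.7 in KSRi. Of 32 nuclear pore and transport genes, 0 were called higher and 23 lower (median −0.31, and 0 and 19 with KSRi library 1 alone). *KPNB1*, importin beta, had 990, 983 and 965 CPM in DMSO and 658, 672 and 620 in KSRi, and *IPO5*, another importin, had 702, 693 and 673 against 446, 457 and 451. The medians of the 3 KSRi libraries were −0.38, −0.33 and −0.30 for the splicing proteins and −0.31, −0.27 and −0.33 for the pore genes, but −0.41, −0.20 and −0.16 for the core spliceosome, where library 1 was lowest.

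Hosts of small nucleolar RNAs and genes of RNA polymerase III, which transcribes transfer RNA and other small RNAs, were lower as well. Of 21 tested host genes, 1 was called higher and 14 lower (median −0.49, with −0.47, −0.45 and −0.53 in the 3 KSRi libraries, and 1 and 13 with KSRi library 1 alone). *ZFAS1* had 19.3, 20.5 and 22.5 CPM in DMSO and 11.1, 8.36 and 7.95 in KSRi (log2 change −1.18 ± 0.11, edgeR adjusted p = 4.8e-07). *SNHG29* ran against the group, with 423, 351 and 417 CPM in DMSO and 530, 636 and 732 in KSRi. Of 20 genes of RNA polymerase III and its factors, 1 was called higher and 10 lower (median −0.21, and 1 and 10 with KSRi library 1 alone). A pair of alternative subunits whose RNA changed in opposite directions is included in these counts. *POLR3G*, the form known from stem and tumour cells, had 58.5, 60.0 and 59.0 CPM in DMSO and 29.99, 25.3 and 22.8 in KSRi (log2 change −1.18 ± 0.09, edgeR adjusted p = 3.5e-08), while *POLR3GL*, the form of most adult tissues, rose from 6.15, 6.61 and 6.23 CPM to 9.56, 11.4 and 10.6 (log2 change 0.74 ± 0.09).

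Among translation factors, more were called lower than higher. Of 36 initiation factors, 3 were called higher and 15 lower (median −0.19, and 1 and 18 with KSRi library 1 alone). *EIF1AX*, which scans for the start codon, had 249, 261 and 257 CPM in DMSO and 172, 162 and 156 in KSRi (log2 change −0.64 ± 0.06, edgeR adjusted p = 7.7e-07). Of 12 elongation and release factors, 3 were called higher and 7 lower (0 and 6 with KSRi library 1 alone). The release factors *ETF1* (341 ± 6.58 to 226 ± 11.7 CPM) and *GSPT1* (366 ± 12.1 to 240 ± 17.9 CPM) fell in every KSRi library, and the recycling factor *ABCE1* fell from 408 ± 7.66 to 266 ± 44.5 CPM. Of the ribosomal protein genes, 11 of 44 of the large subunit and 9 of 32 of the small subunit were called higher, shares near the 22.0% of all tested genes, and 3 of each lower (9 higher and 5 lower of the large subunit with the offsets). These counts rest on single libraries. The median log2 changes of the 2 lists were 0.15 and 0.22 with all libraries, and −0.0 and −0.05 with KSRi library 1 alone. Without KSRi library 1, 23 and 15 were called higher. Leaving out DMSO library 2, KSRi library 2 or KSRi library 3 left 6 of the large subunit each time, and 4, 5 and 2 of the small subunit, of which a fit of only the 6 libraries called 5. *RPS4X*, of the small subunit, had 542, 636 and 697 CPM in DMSO and 801, 931 and 971 in KSRi (log2 change 0.53 ± 0.11). *EEF1A1*, the elongation factor that delivers aminoacyl-tRNA, had 9303, 8487 and 8941 CPM in DMSO and 8831, 12860 and 14920 in KSRi, so that library 1 lay among the controls (log2 change 0.45 ± 0.14, edgeR adjusted p = 0.015).

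Among 20 cytosolic tRNA synthetases, 4 were called higher and 9 lower, with 5 lower without DMSO library 3, and 2 higher and 7 lower with KSRi library 1 alone. *FARSB*, the phenylalanine enzyme, had 186, 186 and 181 CPM in DMSO and 126, 134 and 122 in KSRi (log2 change −0.53 ± 0.07), whereas *AARS1*, the alanine enzyme, had 186, 149 and 179 against 270, 396 and 478 (log2 change 1.15 ± 0.15, edgeR adjusted p = 1.2e-05). *CARS1*, the cysteine enzyme, rose from 75.5 ± 6.99 to 135 ± 27.1 CPM. Serine and folate genes were divided, with 6 of 19 called higher and 2 lower, and 5 and 5 with KSRi library 1 alone. The serine enzymes *PHGDH* (224 ± 13 to 447 ± 128 CPM) and *PSAT1* (213 ± 6 to 433 ± 79.1 CPM) and the mitochondrial folate enzyme *MTHFD2* (336 ± 11.9 to 556 ± 87.2 CPM) rose. *MAT2A*, which makes S-adenosylmethionine, fell from 957, 928 and 1014 CPM to 568, 482 and 505, below every DMSO library. Of 15 amino acid transporters, 8 were called higher and 3 lower, with 5 higher without KSRi library 3, and 4 higher and 2 lower with KSRi library 1 alone. *SLC7A11*, the cystine importer, which stands on the antioxidant list, had 16.9, 20 and 16.9 CPM in DMSO and 65.1, 51.2 and 59.7 in KSRi (log2 change 1.71 ± 0.10). *SESN2*, a leucine sensor above mTORC1, had 18.5, 16.3 and 18 CPM in DMSO and 41.3, 59.2 and 72.5 in KSRi, and *DDIT4*, another restraint on mTORC1, rose from 36.5 ± 1.97 to 76.0 ± 7.93 CPM. Of 28 tested genes on a list of MiT/TFE factors and mTORC1 nutrient sensing, however, 8 were called higher and 1 lower. The median was 0.08, and −0.01 with KSRi library 1 alone. A fit of only the 6 libraries called 5 higher.

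**Figure D4:**
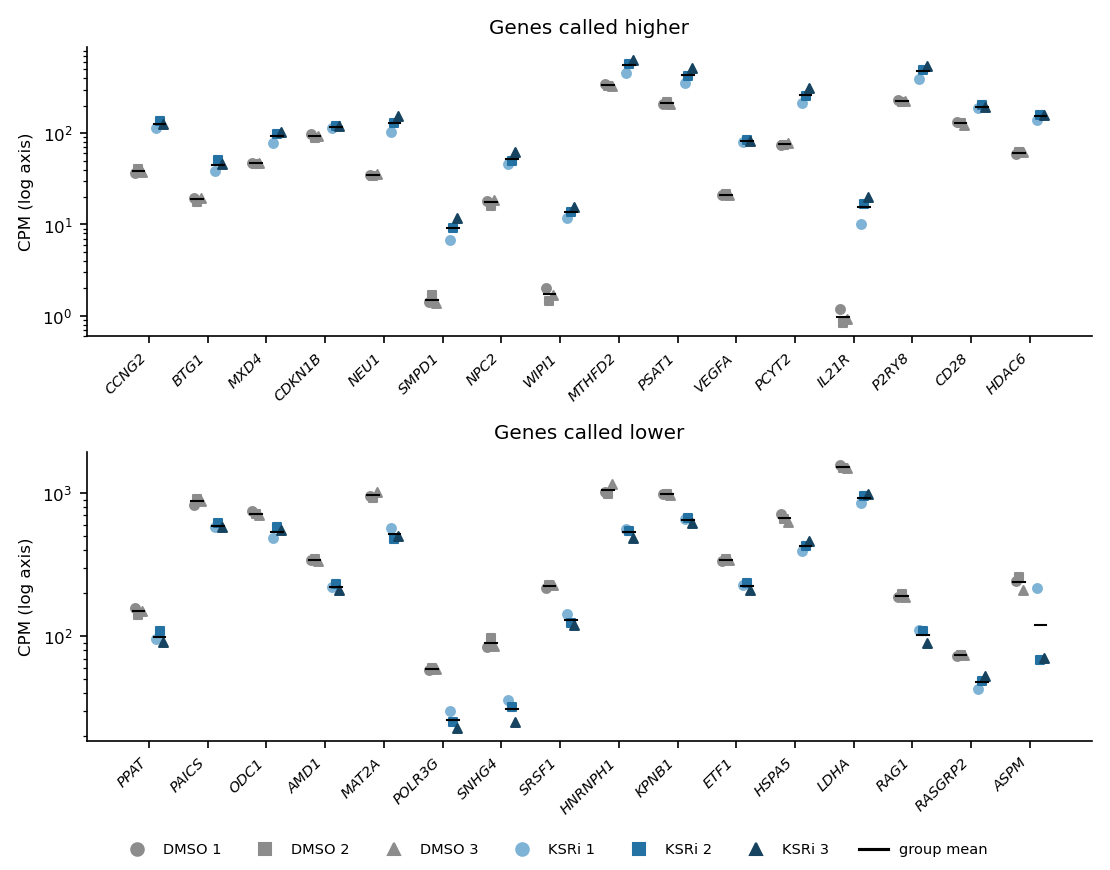
CPM (vertical axis, log scale) of 16 genes called higher and 16 called lower in KSRi, with 1 point per library and a black bar at each group mean. KSRi and DMSO points are separate for *CCNG2*, *NEU1*, *PSAT1*, *PPAT*, *KPNB1* and *HNRNPH1*, while *ASPM* has KSRi library 1 at 218 CPM beside the DMSO libraries.

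The lists of the endoplasmic reticulum differed in their counts. Of 19 chaperone and folding genes, 4 were called higher and 6 lower (median −0.06, with 2 and 7 both with KSRi library 1 alone and with the offsets), so they did not move together, and for 6 every KSRi library lay below all 11 other libraries of the series, against 3.49% of all tested genes. *HSPA5*, the chaperone BiP, had 713, 658 and 632 CPM in DMSO and 392, 427 and 460 in KSRi (log2 change −0.65 ± 0.07, edgeR adjusted p = 3.4e-06). *HSP90B1*, the chaperone GRP94, had 673, 674 and 654 CPM in DMSO and 447, 322 and 311 in KSRi, also without overlap. Of the 4 called higher, *DNAJB9*, a co-chaperone of *HSPA5*, rose from 15.2 ± 0.829 to 29.6 ± 1.82 CPM. On the other list, 13 of 20 stress sensor and ER-associated degradation genes were called higher and 1 lower (median 0.31, and 8 and 1 with KSRi library 1 alone). *XBP1*, a transcription factor of the unfolded protein response, had 90.7, 85.6 and 83.3 CPM in DMSO and 118, 139 and 133 in KSRi (log2 change 0.59 ± 0.07). *EDEM1*, which directs misfolded glycoproteins to degradation, rose from 529 ± 9.15 to 774 ± 67.0 CPM.

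Among membrane lipid genes other than those for sterols and fatty acids, more were called higher than lower. Of 28 phospholipid and triglyceride genes, 13 were called higher and 3 lower (median 0.28, with 7 and 4 with KSRi library 1 alone and 11 and 5 with the offsets). *PCYT2* (chromosome 17), the regulated enzyme of phosphatidylethanolamine synthesis, had 74.4, 73.9 and 78.0 CPM in DMSO and 215, 256 and 311 in KSRi, a 3.45-fold rise (log2 change 1.79 ± 0.11, edgeR adjusted p = 2.2e-09). *LPIN1*, a phosphatidate phosphatase, had 87.0, 86.1 and 82.9 CPM in DMSO and 136, 147 and 148 in KSRi, and *LPCAT3*, which inserts polyunsaturated chains, rose from 43.8 ± 2.82 to 81.9 ± 8.93 CPM. Of 21 sphingolipid genes, 10 were called higher and 1 lower (median 0.24, and 5 and 1 with KSRi library 1 alone). *SPTLC2*, a subunit of the first enzyme of the pathway, had 119, 110 and 117 CPM in DMSO and 144, 160 and 178 in KSRi.

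Energy metabolism did not move in 1 direction. Of 23 glycolysis genes, 8 were called higher and 8 lower, or 3 and 12 with KSRi library 1 alone, and the list's median was −0.48, −0.06 and 0.10 in KSRi libraries 1, 2 and 3. *LDHA*, lactate dehydrogenase, had 1571, 1493 and 1504 CPM in DMSO and 857, 949 and 985 in KSRi (log2 change −0.71 ± 0.07, edgeR adjusted p = 6.7e-07), and *HK2*, hexokinase, had 137, 132 and 136 against 80.5, 83.9 and 99.6. *ALDOC*, an aldolase, had 9.71, 10.3 and 9.44 CPM in DMSO and 64.2, 84.5 and 93.8 in KSRi, an 8.22-fold rise (log2 change 3.04 ± 0.13), and *PFKFB4*, which makes an activator of phosphofructokinase, rose from 15 ± 0.514 to 41.8 ± 4.54 CPM. *VEGFA*, the vascular growth factor and a hypoxia target, had 21, 21.5 and 21.2 CPM in DMSO and 80.7, 83.4 and 82.2 in KSRi, with almost no spread in either group (log2 change 1.95 ± 0.07, edgeR adjusted p = 2.5e-12). On the NADPH list, where 5 of 12 were called higher and 3 lower (8 higher without KSRi library 1, and 4 and 3 with it alone), *IDH1*, cytosolic isocitrate dehydrogenase, rose from 86.9 ± 6.30 to 136 ± 7.74 CPM and *PGD*, of the pentose phosphate route, from 413 ± 48.6 to 827 ± 199 CPM.

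Most genes of mitochondrial protein import fell. Of 21 tested genes, 0 were called higher and 12 lower (median −0.25, and 0 and 15 with KSRi library 1 alone). *GRPEL1*, a cofactor of the import motor, had 90.9, 90.8 and 92.5 CPM in DMSO and 55.1, 68.7 and 69.1 in KSRi (log2 change −0.51 ± 0.08). Of 46 proteins of the mitochondrial large ribosomal subunit, 0 were called higher and 12 lower, 12 of 46 beside 18.7% of all tested genes (median −0.09), while 21 were called lower with KSRi library 1 alone and 19 with the GC and length offsets. *MRPL3*, of that subunit, had 267, 259 and 256 CPM in DMSO and 174, 187 and 162 in KSRi. The proteasome had a like pattern, with 0 of 32 called higher and 10 lower (median −0.14), and 14 lower in either of those 2 fits. *PSMA5*, of its core, had 265, 253 and 249 CPM in DMSO and 185, 175 and 183 in KSRi. Nuclear subunits of respiratory complex I showed little change, with 4 of 37 called higher and 5 lower (median 0.04), and 3, 3 and 2 lower without DMSO library 1, DMSO library 2 or KSRi library 2, and 0 higher and 5 lower with KSRi library 1 alone.

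**Figure D5:**
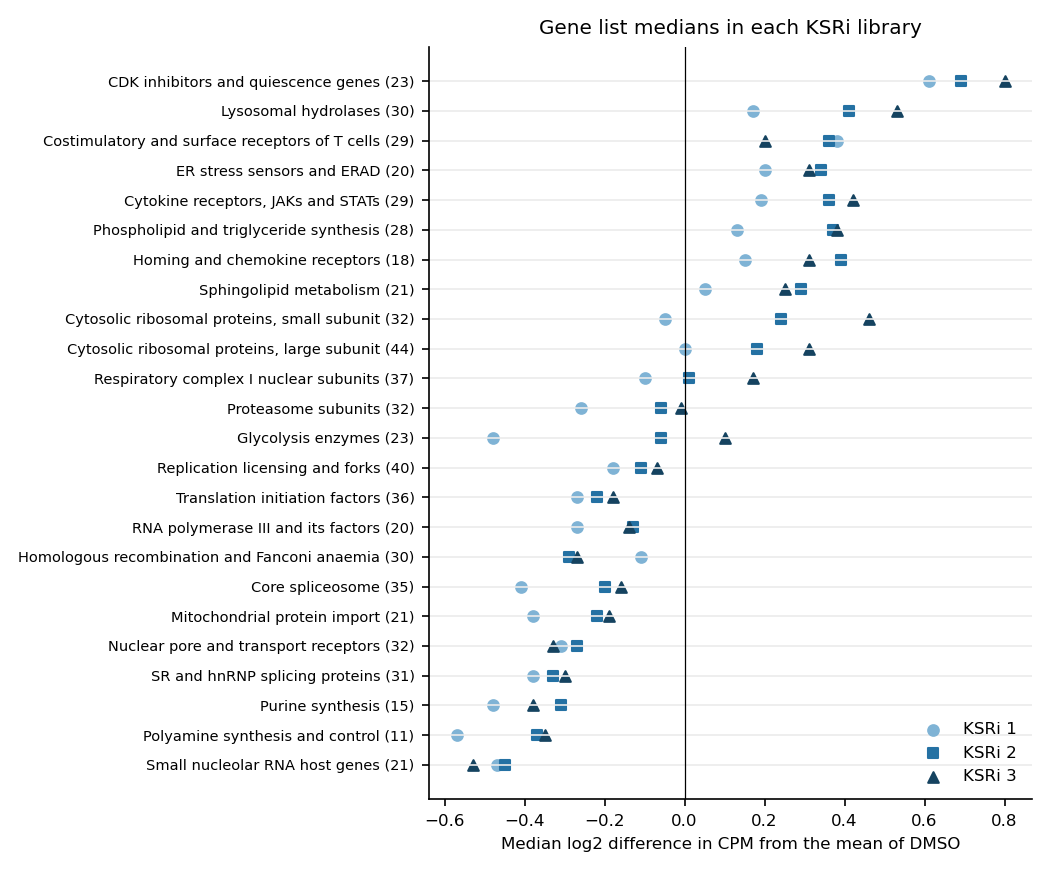
Median log2 difference from the DMSO mean (horizontal axis) of 24 gene lists in each of the 3 KSRi libraries, 1 marker per library. Quiescence genes lie at 0.61, 0.69 and 0.80 and small nucleolar RNA hosts at −0.47, −0.45 and −0.53, while glycolysis spreads from −0.48 to 0.10.

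Cytokine, costimulatory and homing receptors were called higher more often than lower, but not the TNF receptor superfamily. Of its 11 tested genes, 2 were called higher and 4 lower (median −0.14, and −0.22 with KSRi library 1 alone). Of 29 cytokine receptors, JAKs and STATs, 13 were called higher and 1 lower (median 0.28, and 11 and 0 with KSRi library 1 alone). *IL21R* (chromosome 16, 27402162 to 27452042), the interleukin-21 receptor, had 1.17, 0.826 and 0.931 CPM in DMSO and 9.998, 16.7 and 19.8 in KSRi (log2 change 3.99 ± 0.23, edgeR adjusted p = 1.6e-09). *IL10RA*, a chain of the interleukin-10 receptor, had 2.26, 2.58 and 2.97 CPM in DMSO and 6.21, 7.73 and 8.86 in KSRi, and the signal transducer *STAT4* rose from 5.06 ± 0.225 to 10.1 ± 0.654 CPM. A RefSeq promoter inside the annotated span of *IL21R* (chr16:27427123-27427190, plus strand, GRCh38.p14) holds the letters TGATGCAA named above, in capitals.
IL21R: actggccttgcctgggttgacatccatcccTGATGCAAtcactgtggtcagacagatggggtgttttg

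Of 29 costimulatory and surface receptors, 13 were called higher and 1 lower (median 0.31, and 9 and 1 with KSRi library 1 alone). *CD28*, the main costimulatory receptor, had 133, 129 and 125 CPM in DMSO and 190, 204 and 192 in KSRi (log2 change 0.60 ± 0.07, edgeR adjusted p = 6.9e-06). *CD1B*, a lipid-presenting molecule of cortical thymocytes, had 44.2, 40.2 and 41.8 CPM in DMSO and 72.0, 69.2 and 79.8 in KSRi, and *CD53*, a tetraspanin of white cells, rose from 107 ± 4.97 to 173 ± 10.9 CPM. Of 18 homing receptors, 7 were called higher and 1 lower (median 0.25, and 4 and 1 with KSRi library 1 alone). *P2RY8*, a receptor that confines lymphocytes, had 233, 220 and 225 CPM in DMSO and 397, 492 and 549 in KSRi (log2 change 1.09 ± 0.10). *ITGAL*, the integrin chain of LFA-1, rose from 171 ± 2.76 to 307 ± 60.5 CPM.

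The antigen receptor genes gave a count that single libraries decide. Of 12 genes of the receptor complex, 5 were called higher and 1 lower (2 and 3 with KSRi library 1 alone), but 1 to 3 were called higher when KSRi library 2, KSRi library 3, DMSO library 2 or DMSO library 3 was left out, and 3 with the GC and length offsets. *CD3E*, a signalling chain, had 338, 329 and 335 CPM in DMSO and 373, 660 and 530 in KSRi, so library 1 was near the controls. *PTCRA*, the pre-receptor alpha chain of immature thymocytes, fell from 10.3, 10.7 and 8.85 CPM to 4.06, 5.21 and 6.01 (log2 change −0.98 ± 0.15, edgeR adjusted p = 6.6e-05). Of 25 recombination and early thymocyte genes, 5 were called higher and 6 lower, or 3 and 6 with the offsets. The median was 0.13, and 0.08 with KSRi library 1 alone. The majority of lower calls was not kept with upper-quartile factors, with library weights or without KSRi library 1. *RAG1*, the recombinase of antigen receptor loci, had 189, 196 and 189 CPM in DMSO and 110, 109 and 90.01 in KSRi (log2 change −0.89 ± 0.08, edgeR adjusted p = 2.5e-07). *TCF7*, a T-lineage transcription factor, had 968, 882 and 885 against 669, 713 and 705, and *SATB1*, a genome organiser of thymocytes, fell from 323 ± 4.09 to 246 ± 23.1 CPM. Of 34 proximal signalling genes, 11 were called higher and 3 lower, with 7 higher without DMSO library 3 or in a fit of only the 6 libraries, 13 higher and 6 lower with the offsets, and 6 higher and 5 lower with KSRi library 1 alone.

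Regulators of RAS lie just above the scaffold's cascade. Of 26 exchange factors and GTPase-activating proteins, 4 were called higher and 11 lower (median −0.15, and 2 and 8 with KSRi library 1 alone), and the members called lower included both activators and inhibitors of RAS family proteins. *RASGRP2*, an exchange factor, had 72.3, 74.5 and 73.8 CPM in DMSO and 42.9, 48.7 and 52.6 in KSRi (log2 change −0.62 ± 0.09, edgeR adjusted p = 6.5e-05). *RASA3*, a GTPase-activating protein, had 89.7, 81.2 and 79.1 CPM in DMSO and 55.0, 58.0 and 61.8 in KSRi, and *NF1*, another, fell from 140 ± 1.67 to 111 ± 6.71 CPM. The exchange factor *SOS2* rose instead, from 38.3, 38.8 and 37.4 CPM to 61.7, 55.5 and 50.8 (log2 change 0.56 ± 0.09). Of 28 PI3K and AKT genes, 8 were called higher and 2 lower, but 2 and 2 with KSRi library 1 alone. *PIK3R3*, a regulatory subunit, had 116, 117 and 113 CPM in DMSO and 180, 188 and 219 in KSRi. Of 10 genes of the AMPK complex and its kinases, 0 were called higher and 4 lower (median −0.21, and 0 and 2 with KSRi library 1 alone). *CAMKK2*, an AMPK-activating kinase, had 189, 189 and 193 CPM in DMSO and 142, 154 and 156 in KSRi.

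Genes of cell death were mixed, with more higher than lower. Of 19 BCL2 family genes, 7 were called higher and 2 lower (6 and 2 with KSRi library 1 alone). *BMF*, a BH3-only promoter of apoptosis, had 9.21, 7.93 and 8.25 CPM in DMSO and 20.7, 23.7 and 27.3 in KSRi (log2 change 1.5 ± 0.10, edgeR adjusted p = 9.7e-09). *PMAIP1*, another BH3-only gene, rose from 44.9 ± 1.51 to 65.6 ± 5.27 CPM, and *BCL2*, the survival factor, fell from 64.8, 64.0 and 64.4 CPM to 57.0, 55.7 and 56.1 (log2 change −0.20 ± 0.06, edgeR adjusted p = 0.017). Of 22 death receptor and caspase genes, 8 were called higher and 1 lower (7 and 2 with KSRi library 1 alone). *CASP8*, the initiator caspase of death receptors, rose from 94.3 ± 5.54 to 148 ± 10.1 CPM.

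By size alone, the largest rises among genes of at least 20 CPM included several outside any list used here. *CDHR1* (chromosome 10, 84194635 to 84219621), a photoreceptor cadherin, had 3.60, 4.16 and 3.93 CPM in DMSO and 34.4, 36.6 and 42.8 in KSRi, a 9.66-fold rise (log2 change 3.27 ± 0.10, edgeR adjusted p = 7e-13). *TTLL9*, of the tubulin tyrosine ligase-like family, had 2.30, 2.15 and 2.04 CPM in DMSO and 21.4, 19.5 and 19.6 in KSRi (log2 change 3.23 ± 0.10). *RAB33A*, a small GTPase, had 8.54, 7.96 and 8.22 CPM in DMSO and 54.0, 68.0 and 70.4 in KSRi (log2 change 2.96 ± 0.11). Among the largest falls, *PUS7*, a pseudouridine synthase, had 87.9, 91.5 and 83.3 CPM in DMSO and 42.4, 41.7 and 34.5 in KSRi (log2 change −1.14 ± 0.09, edgeR adjusted p = 3.6e-08). *CHORDC1*, a co-chaperone of HSP90, had 212, 220 and 202 CPM in DMSO and 109, 84.7 and 70.8 in KSRi (log2 change −1.26 ± 0.11). *ESF1*, a factor of pre-ribosomal RNA processing, had 62.0, 67.7 and 57.0 CPM in DMSO and 40.3, 19.1 and 20.7 in KSRi, so its fall was smaller in library 1. By difference of mean CPM, *SCD*, a fatty acid desaturase, and *NPM1*, nucleophosmin, were among the 8 largest in either direction, at 1381 ± 43.5 against 5068 ± 523 and 1650 ± 48.5 against 973 ± 26.7 CPM.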

How the data were processed

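The authors deposited raw counts for 61541 Ensembl genes in 1 table. STAR 2.7.11b and DESeq2 1.42.1 are named, with GRCh38, per the submitters' processing notes. The sources used here name no counting program, strand setting or annotation, so overlapping and antisense genes and near-identical copies are uncertain. No column belonged to another series (0). Symbols were matched to 61369 identifiers (172 unmatched), and positions are those of GENCODE 29. Promoters are from RefSeq (GRCh38.p14), with 11752 of 18861 unique tested symbols matched and 1 listed start used per gene.

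Counts were fitted with edgeR 4.0.16 (R 4.3.3), using TMM factors, filterByExpr (18963 genes), 1 mean per group over all 14 libraries, the quasi-likelihood F test and Benjamini-Hochberg adjustment over all tested genes at 0.05. CPM use TMM-scaled library sizes. The shared spread does not allow for the larger spread within KSRi. Standard errors are the log2 change divided by the square root of F. The procedure was checked on simulated data with the same spread in every group, so that check does not cover the larger spread within KSRi.

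The libraries, the 92 gene lists and the naming rule were chosen with earlier results of these data known, so no list is independent support. Named genes are *KSR2* and *KSR1*, the 10 largest rises and falls by fold (at least 20 CPM, no overlap), the 8 largest by CPM difference, the 10 most variable KSRi genes, and up to 4 members per list with the lowest p in its majority direction and 2 in the other. Some genes that the rule names are not reported here. Lists are given as counts and medians with no set test.

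The alternatives tried were upper-quartile and RLE factors, no filter, 5 CPM in 3 libraries, DESeq2 1.42.0, limma-voom (3.58.1) with and without library weights, a fit of the 6 libraries, a replicate block, each library left out, and an adjusted p under 0.01. Added after the data had been seen were offsets for GC content (20 bins) and length (5 bins), and KSRi library 1 alone. Same-numbered KSRi and DMSO libraries had deviations correlated at −0.27, −0.18 and 0.15, and the other pairs at −0.351 to 0.378. Deviations centred within 3 libraries cannot decide whether the numbers pair them, so pairing is not known.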

Additional observations from a re-analysis of the deposited data

How the results depend on the processing

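Of 7712 called genes (4175 higher, 3537 lower, 1475 at least 2-fold), 5073, 2548, 2525 and 949 were called with KSRi library 1 alone. A threshold of 0.01 left 2258 lower, and the 5 CPM filter left 439 at least 2-fold. Leaving out 1 library gave 6209 to 8928 calls, 3433 to 4912 higher, 2759 to 4016 lower and 1257 to 1878 at least 2-fold. The fit with the replicate block in the 6 libraries gave 5185 (2801 higher, 2384 lower, 1114 at least 2-fold), and 6137 were called in these libraries without it. DESeq2 called 7590, limma-voom 7736, or 10857 with library weights, and the GC and length offsets 8305 (4038 higher, 4267 lower). With KSRi library 1 alone the log2 change turned to −0.012 for *EEF1A1*, −0.039 for *UQCRC1*, −0.002 for *SSR2*, −0.12 for *COPG1* and −0.028 for *TRAC*. With the offsets it turned to −0.17 for *ATP6V1F*, 0.024 for *LAMTOR3*, −0.001 for *UQCRQ*, −0.018 for *FTL* and 0.008 for *SLC30A7*. The cause was not tested. Of 491 named genes, 154 lost their call or turned under at least 1 of 18 settings, 117 of them by losing it with KSRi library 1 alone. Of 85 lists with at least 3 called members, 50 kept their majority direction under all 17 settings. Among list counts of at least 5, RLE factors moved 1 by over 1.5 times (cytokine feedback genes, 5 to 3 higher) and upper-quartile factors none. Both kinds of factor still turned or removed the majority direction of the NF-kB list. RLE factors did so for other lists too, such as the COPI and COPII coats, and upper-quartile factors for the recombination and early thymocyte genes. The median half-width of the 95% interval of the log2 change was 0.26, and 12861 genes (67.8%) had intervals within −1 to 1.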

Other observations

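Further gene groups are given here by their counts. Some lie near the shares over all tested genes, 22.0% called higher and 18.7% called lower. Of 21 circadian clock genes, 6 were called higher and 2 lower (4 and 2 with KSRi library 1 alone): *BHLHE40*, a repressor of the clock, had 7.91, 8.69 and 9.49 CPM in DMSO and 28.6, 29.5 and 33.7 in KSRi, while *PER2* fell from 27.1 ± 1.64 to 17.1 ± 1.26 CPM (SD, n = 3 each). Of 26 histone acetylases and deacetylases, 8 were called higher and 5 lower (6 and 4 with KSRi library 1 alone), and *HDAC6*, a deacetylase of tubulin, had 58.6, 62.9 and 62.1 CPM in DMSO and 140, 159 and 160 in KSRi. Of 30 polycomb genes, 4 were called higher and 10 lower (2 and 11 with KSRi library 1 alone). Tubulin and microtubule genes were divided (4 higher and 5 lower of 21, or 2 and 6 with KSRi library 1 alone, and 3 lower without DMSO library 1, DMSO library 3 or KSRi library 2), with *TUBA1A* at 211 ± 5.57 and 657 ± 84.2 CPM and the kinesin *KIF5B* at 307 ± 11.2 and 218 ± 35.4 CPM. Among iron genes (3 higher and 5 lower of 14, or 2 and 4 with KSRi library 1 alone), *FTH1*, ferritin heavy chain, rose from 701 ± 51.9 to 1269 ± 217 CPM and *TFRC*, the transferrin receptor, fell from 812 ± 15.4 to 646 ± 21.4 CPM. On the list of very large proteins, 9 of 19 were called higher and 2 lower (median 0.66, or 0.49, 0.64 and 0.67 in KSRi libraries 1, 2 and 3, with 11 and 0 with KSRi library 1 alone), and *AHNAK*, a giant scaffold of the membrane skeleton, rose from 61.9 ± 1.66 to 108 ± 6.4 CPM.

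Calls differed between kinds of transcript. Of 326 sense intronic genes, 9 were called higher and 76 lower (median log2 change −0.37), and of 655 processed pseudogenes 32 and 79. Of 13174 protein-coding genes, 3358 were called higher and 2715 lower. Pseudogenes share reads with their parent genes in a way that depends on how reads were counted.

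The following 4 genes, singled out after their values were seen, differed more in mean CPM between the solvent control and the non-targeting guide (NT, n = 2) than between KSRi and DMSO. *SRM* had mean levels of 285 CPM in DMSO, 194 in KSRi and 53.2 in NT. *HSPA5* had 668, 426 and 1654 CPM. *ENO1* had 2354, 1659 and 727 CPM. *CD38* had 8.99, 16.3 and 91.5 CPM. They are not the only such genes named in this text. *POLR3G* had 59.17, 26.05 and 14.65 CPM, *PUS7* 87.59, 39.53 and 21.18, and *CHORDC1* 211.2, 88.25 and 44.88. *CDHR1*, at 3.898 CPM in DMSO and 37.94 in KSRi, had 31.36 in NT. Others differed less between the controls, such as *SCD* (1381, 5068 and 999.4 CPM) and *MT-ND6* (36.61, 12.24 and 28.04). The number of genes of either kind was not counted. The differences between the control groups were not tested here.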
